A study of Mus musculus with 116 samples.

Results

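Several mouse Igkv gene families hold only a few V segments of the immunoglobulin kappa light-chain locus, and the segments of such families described here are Igkv7-33, Igkv13-84, Igkv13-85, Igkv15-103, Igkv16-104, Igkv18-36 and Igkv19-93. They were chosen by name, and a deposited junction was assigned to one of them when it lay on chromosome 6 within 100 bp of the segment in RefSeq coordinates (GRCm38, the same build as mm10). They are 7 of the 162 Igkv segments in that annotation, and they held 67673 of the 1373762 junction reads assigned to any Igkv segment (1374899 reads in all lists). The other 155 segments served as the background. Igkv13-84 and Igkv13-85 belong to 1 family and are near copies of each other, so they share most of their sequence.

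All 42 libraries came from mouse pro-B cell clones, an early stage of B-cell development that the v-Abl oncogene keeps growing in culture. Every group, the WT groups included, carried the Emu-Bcl2 genotype, a Bcl2 survival transgene under an immunoglobulin enhancer, and a 96 h treatment with 3 µM STI-571, which blocks the Abl kinase, held all cells in G1. Each library was read from the coding end of Jk1 (target Jk1-CE), a joining segment of the kappa locus. There were 14 groups of 3 libraries. WT (genotype Emu-Bcl2) was clones A and B, Ku70-/- was clones A1 and B1, and Lig4-/- was clones A1 (in 2 separate sets), B1 and C. Lig4-/- +Lig4 was clones A1 and C, Lig4-/- Ku70-/- was clones A1_1 and C1, and Lig4-/- Ku70-/- +Ku70 was the same clones A1_1 and C1. Each group is 1 clone, the labels do not say how the added Lig4 or Ku70 was expressed, and clones sharing a first letter are treated here as a lineage. Nothing in the labels says that the replicates of a group were separate cultures, so p-values measure the spread between these libraries only, which may be technical. Lineages also differed in sequencing: lineages A and C were run on a MiSeq and lineage B on a NextSeq, and the authors normalised the sets to 167151, 377068 and 600000 raw reads for A, C and B.

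In kappa recombination the RAG recombinase cuts between a V or J segment and its recombination signal sequence (RSS), which is a heptamer and a nonamer separated by a short spacer. The cut leaves a coding end and a signal end on each side. Classical non-homologous end joining, in which the Ku heterodimer (Ku70 and Ku80) binds the ends and ligase IV seals them, then joins the coding ends to each other and the signal ends to each other. Without these factors ends can be degraded and joined by alternative routes that often pair short stretches of identical bases, called microhomology. Igkv segments lie in either transcriptional direction along the locus, so joining to Jk1 either deletes or inverts the DNA between.

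The end that each segment offers to Jk1 is shown first, because the joins described later depend on it. The sequences were assembled from the deposited reads of all 42 libraries, and each ends with the 28 bp RSS in the orientation of the segment. Lower-case letters are the last 40 bases of the V segment and the RSS spacer, and capitals mark the heptamer and the nonamer.
Igkv16-104: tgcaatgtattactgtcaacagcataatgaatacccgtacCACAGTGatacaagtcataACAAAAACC
Igkv15-103: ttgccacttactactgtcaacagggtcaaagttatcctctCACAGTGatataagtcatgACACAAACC
Igkv19-93: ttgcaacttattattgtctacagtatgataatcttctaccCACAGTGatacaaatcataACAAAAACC
Igkv13-85: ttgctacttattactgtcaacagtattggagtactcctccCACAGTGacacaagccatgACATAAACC
Igkv13-84: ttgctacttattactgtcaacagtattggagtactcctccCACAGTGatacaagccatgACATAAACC
Igkv18-36: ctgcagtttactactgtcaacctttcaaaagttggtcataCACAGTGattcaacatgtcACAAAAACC
Igkv7-33: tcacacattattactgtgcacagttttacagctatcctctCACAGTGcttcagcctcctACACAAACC
The Jk1 segment that receives them (chromosome 6, 70722562 to 70722599, GRCm38) reads as follows, with its first 15 bases in capitals.
Jk1: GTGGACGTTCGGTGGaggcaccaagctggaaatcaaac
All 7 segments carried the exact heptamer CACAGTG, as did 80.6% of the 103 Igkv segments whose end could be assembled in full. The exact nonamer ACAAAAACC was present in Igkv16-104, Igkv19-93 and Igkv18-36, against 32% of those 103 segments. Both were read at their fixed place after the V end, in the orientation of the segment. The other 4 segments differed from the nonamer at 1 base, and 8 of its 9 bases was also the median match of all 103.

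In GRCm38 all 7 are annotated as V segments on chromosome 6. Igkv16-104 (68425605 to 68426072) and Igkv15-103 (68437468 to 68437925) lie next to each other far from Jk1 and join it by deletion. Igkv19-93 (68736297 to 68736764) and Igkv13-85 (68930269 to 68930734) join by inversion. Igkv13-84 (68939602 to 68940067) lies 8.87 kb from Igkv13-85 and joins by deletion. Igkv18-36 (69992465 to 69992977) and Igkv7-33 (70058632 to 70059199) are nearest to Jk1 and join by inversion. These directions were read from the WT junctions, in which a V coding end joined to the Jk1 coding end appears in 1 orientation. That orientation is called the coding orientation below, and the other is called opposite, so a low opposite share in WT is partly by construction.

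In WT cells the 7 segments together took 4.69% ± 0.198 (SD, n = 3) of library reads in clone A and 4.39% ± 0.102 in clone B, mostly from Igkv19-93, Igkv16-104 and Igkv15-103. Libraries of WT clone A held 47130 to 53074 reads, and those of WT clone B held 291174 to 305846. Ku70-/- clone A1 had 3075 to 6383 and Ku70-/- clone B1 had 50218 to 60811. Depth was 10577 to 35059 in the Lig4-/- +Lig4 libraries, 1867 to 7225 in Lig4-/- Ku70-/-, 46 to 612 in Lig4-/- Ku70-/- +Ku70 and 3 to 74 in Lig4-/-. Rows are single reads without molecular identifiers, so identical rows can be PCR copies, and distinct junctions made up 9.27% to 89.1% of a library's rows. For that reason, intervals and limits on counts of 0 reflect counting error alone.

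Igkv19-93 was the most used of the 7 in WT clone A. Its share of library reads was 1.84%, 2.56% and 2.36% in WT clone A replicates 1 to 3 and 0.787%, 0.699% and 0.756% in WT clone B. The 3 clone A libraries were all higher, and the segment ranked 9 of 126 segments seen in clone A and 49 of 134 in clone B. Igkv16-104 had 1.51%, 0.864% and 1.07% in clone A and 1.87%, 1.81% and 1.79% in clone B, the order reversed and again without overlap, but over distinct junctions the clones overlapped and their difference fell from 0.678 to 0.206 points. Its neighbour Igkv15-103 had 0.552%, 0.509% and 0.456% in clone A and 1.24%, 1.19% and 1.23% in clone B. Counted over all reads, but not over distinct junctions for Igkv16-104, this deletional pair was thus separately higher in clone B. Igkv18-36 had 0.159%, 0.326% and 0.217% in clone A and 0.345%, 0.328% and 0.360% in clone B, a narrow separation that was lost in the coding orientation alone (0.108 points). Igkv13-84 had 0.439%, 0.115% and 0.386% in clone A and 0.110%, 0.116% and 0.131% in clone B, and Igkv13-85 had 0.312%, 0.0691% and 0.228% against 0.0962%, 0.104% and 0.109%. For both Igkv13 segments replicate 2 of clone A was low and the clones overlapped. Igkv7-33 was the least used, at 0.0349% ± 0.00874 and 0.0323% ± 0.00416 (SD, n = 3), which ranked 102 and 107. For scale, the most used segment was Igkv3-10 in clone A (5.44% ± 1.82) and Igkv12-44 in clone B (4.55% ± 0.0353), and the median segment had 0.482% and 0.466%.

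In order of mean level in WT clone A the members ran Igkv19-93, Igkv16-104, Igkv15-103, Igkv13-84, Igkv18-36, Igkv13-85 and Igkv7-33, and in clone B Igkv16-104, Igkv15-103, Igkv19-93, Igkv18-36, Igkv13-84, Igkv13-85 and Igkv7-33. In clone A neighbours in that order overlapped for Igkv13-84 with Igkv18-36 and for Igkv18-36 with Igkv13-85, and the other neighbours were separate. In clone B no neighbours overlapped, but the lowest Igkv13-84 library (0.1096%) lay just above the highest Igkv13-85 library (0.1092%).

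**Figure D1:**
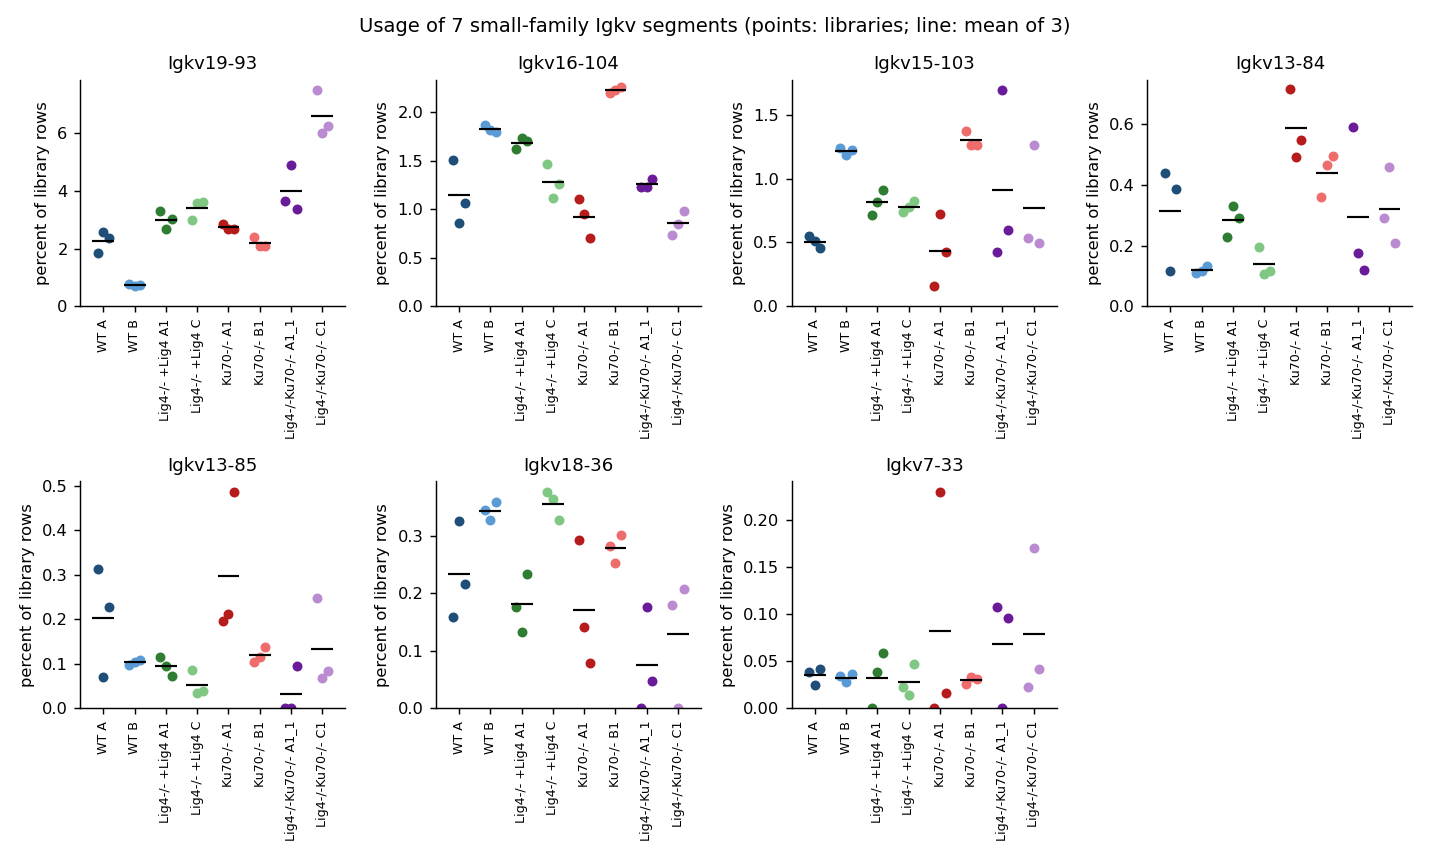
Share of library reads (%, vertical axis) for each of the 7 segments, 1 panel per segment, in the 8 groups outside Lig4-/- and Lig4-/- Ku70-/- +Ku70, whose libraries held at least 1867 reads. Points are libraries and horizontal lines are means of 3; the scales differ between panels, with Igkv19-93 highest in Lig4-/- Ku70-/- clone C1 (6.59%) and lowest in WT clone B (0.747%).

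The comparison of the WT clones was tested on every segment with enough reads. With 3 libraries against 3 the exact permutation test cannot go below p = 0.1, so a segment was counted where the groups did not overlap. Usage was apart in 4 of the 7 segments (Igkv16-104, Igkv15-103 and Igkv18-36 higher in clone B, Igkv19-93 lower), against 69.1% of 123 segments. The median difference was -0.00255 percentage points over the 7 and 0.00600 over all. Joint structure was apart in 0 of 7 for the opposite share (31% of 100 segments), 3 of 7 for microhomology of at least 2 bp (52%), 6 of 7 for inserted bases (91%), 0 of 7 for the median loss from the V end (12%) and 2 of 7 for the median loss from the Jk1 end (15%). The median difference in the share of inserted bases was -19.9 points over all 100 segments and -20.8 over the 7. Over distinct junctions, however, that difference turned to 0.899 points for Igkv15-103 and 2.01 for Igkv16-104, and Igkv18-36 overlapped at -5.87. The Jk1-end loss of Igkv19-93 and the microhomology share of Igkv16-104 also overlapped between the clones over distinct junctions. Clone, sequencing platform, run and depth differed together here and cannot be told apart.

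Single segments also differed in the joins they made in WT cells. Igkv18-36, whose V end reads ggtcata, had the highest share of reads with inserted bases of 100 segments in WT clone A. The values were 85.3%, 98.8% and 82.5% (mean 88.9% ± 8.74, n = 3), against a median segment of 62.5%. Replicate 2, the highest, had the lowest share of distinct junctions among its rows, 9.76% against 27.4% and 19.9% in replicates 1 and 3. In WT clone B the insertion share of Igkv18-36 was 67.1% ± 2.27, rank 4 of 116 segments (median 42.8%). Its V end was uncut in 41.7% ± 1.06 of clone B reads, against 26.4% ± 0.661 for Igkv15-103, 20.6% ± 1.11 for Igkv16-104, 11.6% ± 1.75 for Igkv13-84 and 7.96% ± 0.127 for Igkv19-93. Its most frequent join in clone B held the whole V end and lacked 1 base of Jk1 (10.6% of reads), and its most frequent join in clone A had inserted bases, shown in capitals.
Igkv18-36, WT clone B: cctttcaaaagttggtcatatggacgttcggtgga
Igkv18-36, WT clone A: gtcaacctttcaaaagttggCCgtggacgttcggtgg
The clone A join made up 10.6% of reads but came from 1 of the 3 libraries. Igkv19-93 lost the most from its V end of the 7, a median of 4.33 bp ± 0.577 in clone A (rank 3 of 100 segments) and 4 bp in each clone B library. No 1 join dominated it. Its most frequent join in clone B shared 1 T between the ends and made up 7.43% of reads.
Igkv19-93, WT clone B: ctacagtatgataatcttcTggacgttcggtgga

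Igkv16-104 stood apart from every other segment in the share of microhomology. Reads with at least 2 shared bases were 19.5%, 24.5% and 23.2% in WT clone A (mean 22.4% ± 2.61) and 35.1%, 38.1% and 36.3% in WT clone B (mean 36.5% ± 1.52). The next highest of 100 segments in clone A had 6.35%, and the median had 0.218%. The next highest of 116 in clone B had 4.67%, with a median of 0.766%. The other 6 members lay between 0% and 4.68% in clone A and between 0.628% and 2.13% in clone B. This rank was found after the values were seen and is a description.

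A single join made up nearly all of it. In that join Igkv16-104 had lost 2 bases and Jk1 none, and the bases GT, shown in capitals, could have come from either end.
Igkv16-104, GT join: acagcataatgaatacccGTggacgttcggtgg
It made up 18.6%, 24.5% and 22.0% of the coding-orientation reads of Igkv16-104 in WT clone A and 33.4%, 36.4% and 34.4% in WT clone B. In Lig4-/- +Lig4 it made up 23.7% ± 3.78 (clone A1) and 24.8% ± 2.56 (clone C). When its reads were left out, microhomology fell to 0.876% ± 0.806 in WT clone A and 2.73% ± 0.0816 in WT clone B, values in the range of other segments. The next most frequent join, both ends uncut, made up 4.12% and 3.88% of reads in the clones.
Igkv16-104, uncut ends: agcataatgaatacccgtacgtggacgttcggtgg
The GT join was absent or nearly so without Ku70. It had 0 of 95 reads in Ku70-/- clone A1, which allows a share of up to 3.16%, and 2 of 2817 in Ku70-/- clone B1. In Lig4-/- Ku70-/- it had 0 of 70 reads in clone A1_1 (2 libraries with enough reads; up to 4.29%) and 1 of 109 in clone C1.

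Reads of 1 join can be PCR copies of a few molecules, and the far ends of the reads, where the fragment stopped, bear on this directly. The GT reads ended at 15 to 75 different positions per WT clone A library and at 269 to 290 per WT clone B library. The most frequent far end held 4.14% to 4.30% of them in clone B and up to 28.2% in clone A, where replicate 2 was highest. Counting reads with the same join and far end once gave 15.7% ± 4.53 in WT clone A, 9.18% ± 0.550 in WT clone B, 18.3% ± 2.05 in Lig4-/- +Lig4 clone A1 and 19.7% ± 3.42 in clone C. This count, chosen after the data were seen, saturates when a join has more reads than there are positions at which a fragment can stop. Where every distinct junction counts once per library, 1 join can count only once, and its share was 1.22% and 0.275% in the WT clones.

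The GT join kept the reading frame, with 30 bases (10 codons) from the conserved cysteine codon of the V segment to the phenylalanine codon of Jk1. The share of Igkv16-104 reads in frame was 46.1% ± 3.74 in WT clone A and 54.8% ± 1.01 in WT clone B (n = 3 each). Means of the other 6 segments ranged from 29.4% to 38.2% in WT clone B. In clone A they ranged from 16.9% to 40.4%, but single libraries varied widely. Replicate 2 had 68.2% for Igkv18-36, 60% for Igkv13-85 and 54.4% for Igkv13-84, above every Igkv16-104 library of that clone. It had 49.6% for Igkv19-93, 31.4% for Igkv15-103 and 0% for Igkv7-33. In Ku70-/- clone B1, where the GT join was almost missing, Igkv16-104 had 29.6% ± 3.27 of reads in frame. Frame could be read only where the join kept both codons. That held for 15439 of 16198 coding-orientation reads of Igkv16-104 in WT clone B. It held for 675 of 2817 in Ku70-/- clone B1, whose share in frame thus describes joins with short end loss only.

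GT, the first 2 bases of Jk1, lies within 6 bases of the V end in 16 of the 103 segments (15.5%), among them Igkv16-104, where it is reached by a loss of 2 bases. The loss is 1 base in Igkv4-57-1 and 4 to 6 bases in the other 14, Igkv18-36 included. Those 16 had a median microhomology share of 0.747% in WT clone A and 2.59% in WT clone B, against 0.196% and 0.654% for the segments without it. The highest of the other 15 was Igkv2-112 with 5.38% in clone A and Igkv1-117 with 4.32% in clone B. These segments were picked after the Igkv16-104 value was seen and no test was made.

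**Figure D2:**
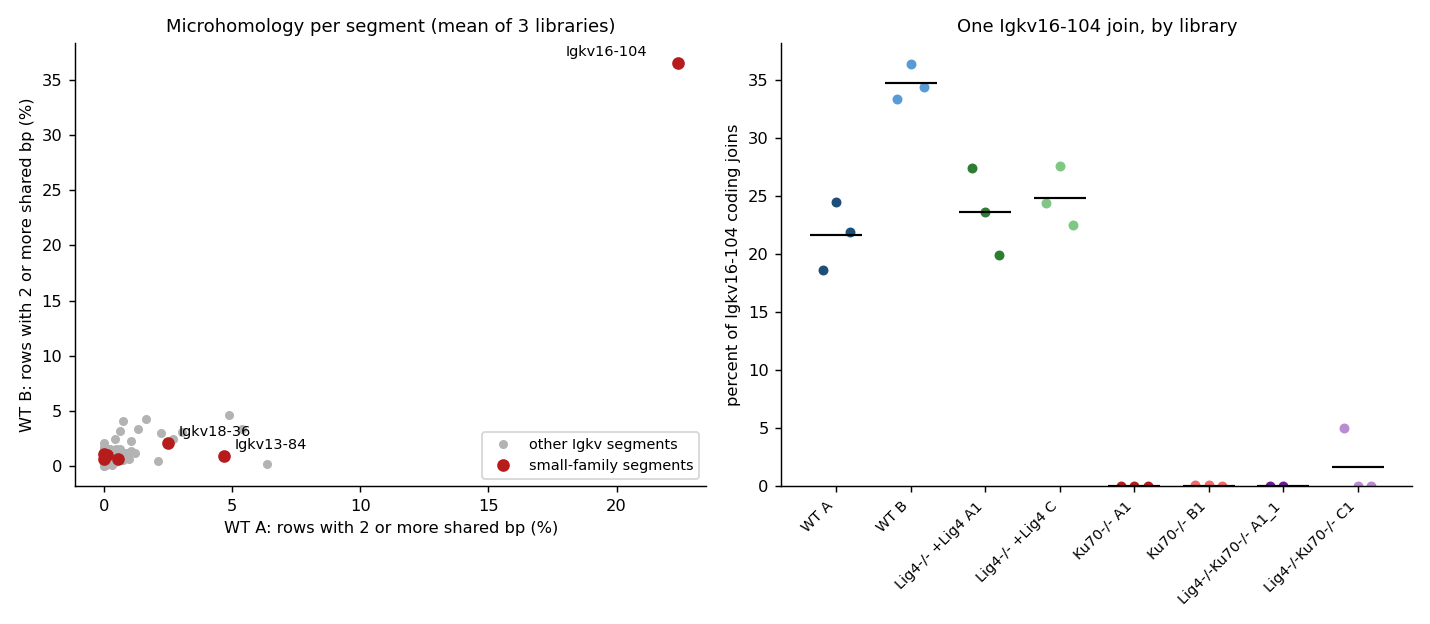
Left, share of reads with at least 2 bp of microhomology (%) per Igkv segment in WT clone A (horizontal axis) and WT clone B (vertical axis), 1 point per segment with the 7 members in red; Igkv16-104 lies alone at 22.4% and 36.5%. Right, share of Igkv16-104 coding-orientation reads in the GT join (%) per library in 8 groups, with values of 18.6% to 36.4% in WT and Lig4-/- +Lig4 libraries and at most 5% in those without Ku70.

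Ku70-/- clones were compared with WT in lineages A and B to ask how loss of Ku changes joining. The 7 segments together took 5.24% ± 0.259 of reads in clone A1 and 6.59% ± 0.152 in clone B1 (n = 3 each), and Igkv19-93 and Igkv13-84 rose. The summed difference from WT was 0.551 points in lineage A and 2.20 in lineage B. In the coding orientation alone it was -0.601 and 0.647, and for junctions inside the segment -0.486 and 0.774. Igkv19-93 had 2.86%, 2.70% and 2.70% in Ku70-/- clone A1 and 2.40%, 2.09% and 2.10% in clone B1. All 6 libraries lay above all WT libraries of their lineage, by 0.495 and 1.45 percentage points on average. Igkv13-84 had 0.715%, 0.493% and 0.548% in clone A1 and 0.360%, 0.465% and 0.495% in clone B1, also above WT in 6 of 6 libraries, by 0.272 and 0.321 points.

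The mean difference over the lineages was 0.972 points for Igkv19-93 and 0.297 for Igkv13-84. For each the exact two-sided permutation p was 0.005, the smallest that 400 relabellings within lineages allow, and the Benjamini-Hochberg adjusted p was 0.0258 over 124 segments. That is 2 of 7 members called, both higher, against 22.6% of the 124 segments (10 higher, 18 lower). The median difference was 0.0547 points over the 7 and -0.00711 over all. Among the other segments 3 deletional and 5 inversional ones rose, and 7 and 10 fell, with 1 more of unset direction. Without replicate 1 of Ku70-/- clone A1 no segment passed, and both members had an adjusted exact permutation p of 0.0564. In the coding orientation alone both calls were lost, with differences of 0.589 points for Igkv19-93 (adjusted exact permutation p = 0.061) and 0.118 for Igkv13-84 (p = 0.131). Igkv13-84 also lost its call over distinct junctions, at 0.148 points (adjusted exact permutation p = 0.189), and over junctions inside the segment, at 0.134 points (p = 0.0794). Within the 2 sequencing runs that held both genotypes in lineage A, Igkv19-93 was higher by 0.134 to 0.332 points and Igkv13-84 by 0.162 to 0.378, while lineage B was a single run. With the replicate number as a block both had an adjusted exact p of 0.121, and no segment passed.

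The other 5 segments did not pass the exact permutation test. Igkv16-104 had 1.11%, 0.951% and 0.705% in Ku70-/- clone A1, overlapping WT, and 2.20%, 2.23% and 2.26% in clone B1, above WT (difference 0.0893 points, adjusted exact permutation p = 0.752). Igkv15-103 had 0.163%, 0.722% and 0.423% in clone A1 and 1.37%, 1.26% and 1.26% in clone B1 (difference 0.00578, exact permutation p = 0.955). Igkv18-36 had 0.171% ± 0.110 and 0.280% ± 0.0247 (difference -0.0640, adjusted exact permutation p = 0.299). Igkv13-85 had 0.297% ± 0.163 and 0.118% ± 0.0167 (difference 0.0547, adjusted exact permutation p = 0.643). Igkv7-33 had 0.0816% ± 0.128 and 0.0302% ± 0.00385, where 1 clone A1 library held 13 reads and another none (0 of 3075, which allows a share of up to 0.0976%). In data simulated with the same depths, and with the WT spread in both genotypes, the test called 15 of 15 segments raised 4-fold. It called 1 of 15 raised 2-fold. The folds were set before shares were rescaled to a common sum, so the shares tested rose by less than these folds. Those counts hold for the raised segments only, and power at the level and spread of each of these 5 was not tested. The usage SD was larger in Ku70-/- clone A1 than in WT clone A for Igkv15-103 (0.28 against 0.0479), Igkv7-33 (0.128 against 0.00874), Igkv18-36 and Igkv13-85. For Igkv16-104 it was smaller (0.202 against 0.3285).

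Igkv13-84 and Igkv13-85 offered identical V ends and differed in direction. Their first difference comes at base 194 from the coding end, and 16 of 450 compared bases differ (96.4% identity). Of the coding-orientation reads assigned to each in the lists, 99.96% and 99.7% reached base 194. Reads too short to reach it may be missing from the lists. Opposite reads run away from the segment, and whether those of the pair could be told apart was not tested. The RSSs of the pair differ at 1 base of the spacer. The excess of Igkv13-84 over Igkv13-85 grew from 0.111 to 0.288 points in lineage A and by 0.306 points in lineage B. The mean growth was 0.242 points (exact two-sided permutation p = 0.015), and 0.147 points in the coding orientation alone (p = 0.045). This pair was chosen for the test after its values were seen, so the p-values are not adjusted for that choice.

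**Figure D3:**
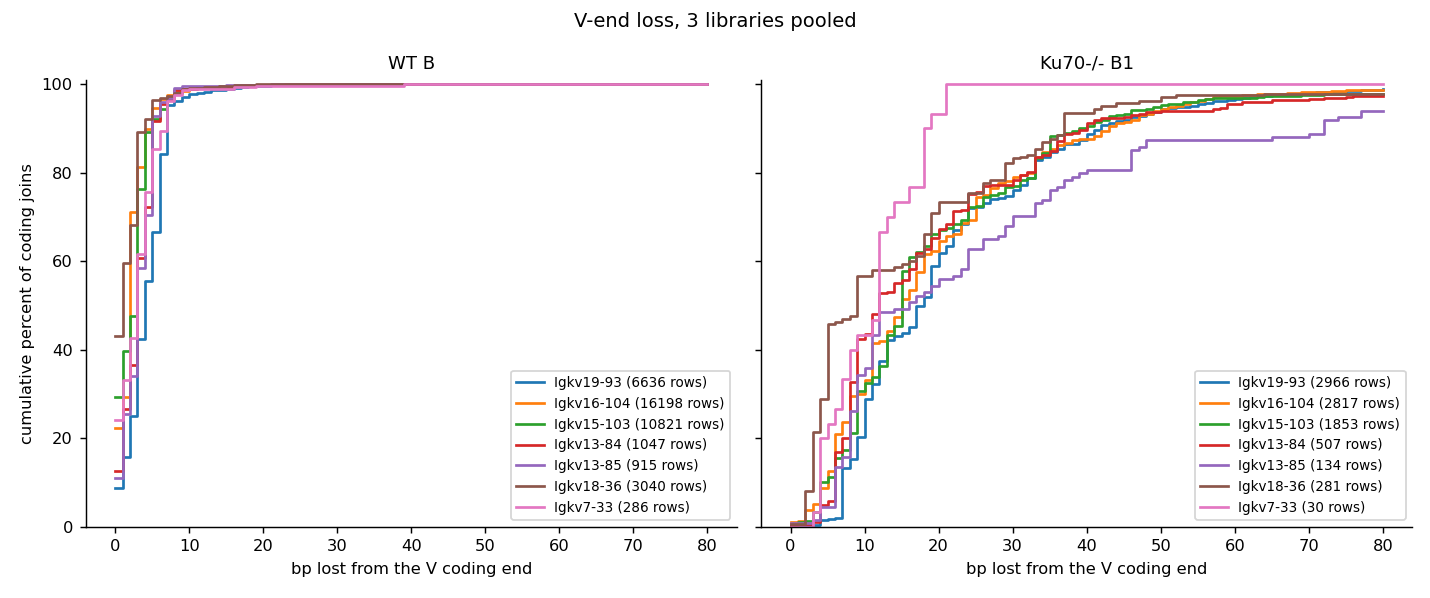
Cumulative share of coding-orientation reads (%, vertical axis) by loss from the V end (bp, horizontal axis) with 1 line per segment, 3 libraries pooled, for WT clone B (left) and Ku70-/- clone B1 (right). The WT lines rise within a few bp of the end and the Ku70-/- lines rise slowly, with 66.8% of Igkv16-104 reads beyond 10 bp (mean of 3 Ku70-/- libraries).

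The structure of the joins changed in Ku70-/- cells in all 3 segments that had at least 10 reads in all 12 libraries, Igkv16-104, Igkv19-93 and Igkv13-84. The change was shared with nearly every other segment. Loss from the V end of Igkv19-93 had medians of 29, 22 and 18 bp in Ku70-/- clone A1 and 17, 18 and 17 bp in clone B1, against 4 or 5 bp in all WT libraries. For Igkv16-104 the medians were 20, 13 and 24 bp and 15, 15 and 14 bp against 2 bp in every WT library. For Igkv13-84 they were 33, 35 and 40 bp and 9, 17 and 11 bp against 2 or 3 bp. The groups did not overlap in any of these, and the mean differences were 16 bp, 14.8 bp and 21.3 bp (exact permutation p = 0.005 each, adjusted p = 0.00509), with 3 of 3 members called against 100% of 55 segments. Over all 7 segments, reads with more than 10 bp lost were 2.06% ± 0.295 and 1.21% ± 0.134 in the WT clones and 82.3% ± 7.42 and 67.0% ± 1.37 in Ku70-/- clones A1 and B1.

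Loss from the Jk1 end rose alongside. Its median was 0 or 1 bp in WT libraries of Igkv19-93 and 14 to 19 bp in Ku70-/- libraries, and the mean differences were 15.4 bp for Igkv19-93, 14.5 bp for Igkv16-104 and 22.7 bp for Igkv13-84 (exact permutation p = 0.005, adjusted p = 0.005, 3 of 3 members against 100% of 55 segments). Inserted bases nearly disappeared. Their share in Igkv19-93 went from 63.7% ± 4.65 and 45.8% ± 1.41 in WT to 0.933% ± 0.809 and 1.02% ± 0.223 in Ku70-/-. The mean differences were -53.8 points for Igkv19-93, -41.4 for Igkv16-104 and -47.9 for Igkv13-84 (exact permutation p = 0.005, adjusted p = 0.005, 3 of 3 against 100% of 55 segments). Igkv18-36, which had the highest insertion share in WT clone A, had 0.629% ± 1.09 in Ku70-/- clone B1.

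Counted over all reads, microhomology moved in both directions within the 7. It rose in Igkv19-93 from 0.540% ± 0.766 and 0.628% ± 0.214 in WT to 21.6% ± 3.98 and 13.8% ± 1.62 in Ku70-/- (difference 17.1 points, exact permutation p = 0.005, adjusted p = 0.00743). It rose in Igkv13-84 from 4.68% ± 8.10 and 0.947% ± 0.291 to 36.5% ± 8.53 and 15.7% ± 1.71 (difference 23.3 points, adjusted p = 0.00743, exact permutation). In Igkv16-104 it was 20%, 4.88% and 32.4% in Ku70-/- clone A1, straddling the WT values, and 18.0%, 21.4% and 23.0% in clone B1, below all 3 WT libraries. The difference of -9.53 points passed the threshold narrowly (exact permutation p = 0.045, adjusted p = 0.0476). With the replicate number as a block its adjusted exact p was 0.125, and within the 2 shared runs of lineage A the difference was -19.6 and 9.17 points. The call was lost in 11 of the 12 fits that left out 1 library, the exception being the one without replicate 3 of Ku70-/- clone A1, and with a minimum of 1 shared base the difference was 5.50 points (adjusted exact permutation p = 0.19). All 3 members passed, 2 higher and 1 lower, against 94.5% of 55 segments, of which 51 rose and Igkv16-104 was the 1 that fell. Without the GT join, Igkv16-104 microhomology was 0.876% and 2.73% in WT and 19.1% and 20.7% in Ku70-/-, which was not tested.

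The joins of Igkv16-104 in Ku70-/- clone B1 spread over many positions. The most frequent lay 6 bases inside V and 4 inside Jk1, with AC shared, and made up 3.94% of 2817 reads. The next shared CGT and made up 2.17%. Capitals mark the shared bases.
Igkv16-104, Ku70-/- clone B1, AC join: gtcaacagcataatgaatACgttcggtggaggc
Igkv16-104, Ku70-/- clone B1, CGT join: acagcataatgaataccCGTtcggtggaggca
Igkv13-84 and Igkv13-85, which also hold AC 6 bases from the end, made the same kind of join most often, in 5.33% and 3.73% of reads of that clone.
Igkv13-84, Ku70-/- clone B1, AC join: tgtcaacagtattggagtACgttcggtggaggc
For Igkv19-93 the leading join of clone B1 shared 1 C and made up 2.39% of reads.
Igkv19-93, Ku70-/- clone B1: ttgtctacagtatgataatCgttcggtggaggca

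Reads in the opposite orientation, which were rare in WT, became frequent in Ku70-/- cells. Pooled over the 7 segments they were 0.240% ± 0.0963 and 0.275% ± 0.0929 in the WT clones, 22.2% ± 6.25 in Ku70-/- clone A1 and 23.8% ± 1.51 in clone B1. In clone B1 the share was 16.3% ± 0.726 for Igkv15-103, 20.6% ± 4.10 for Igkv19-93, 26.1% ± 0.215 for Igkv16-104, 34.4% ± 6.39 for Igkv13-84, 35% ± 4.76 for Igkv13-85, 41.1% ± 1.16 for Igkv18-36 and 42% ± 9.34 for Igkv7-33. The 3 segments tested rose by 27.8 points (Igkv16-104), 15.8 (Igkv19-93) and 33.4 (Igkv13-84), each with exact permutation p = 0.005 and adjusted p = 0.00559. That is 3 of 3 members against 97% of 66 segments, with a median rise of 30.9 points over all 66.

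Without Ku70 these junctions fell mostly on the signal side of the cut. Of the 3516 opposite reads of the 7 segments over all groups, 95.2% lay beyond the V coding end and 81.6% within the 28 bp of the RSS. Ku70-/- clone B1 gave 2666 of these reads, of which 2575 lay beyond the end. In WT clone B, by contrast, 67 of 107 lay beyond it. In Ku70-/- clone B1 the median position was 12 bp beyond the coding end for Igkv19-93 (768 reads), 14 bp for Igkv16-104 (995 reads), 7 bp for Igkv13-84 (254 reads) and 14 bp for Igkv18-36 (197 reads). The cut itself, 1 bp beyond the end, held 11.8% of Igkv13-84 reads and 3.32% of Igkv16-104 reads. At least 2 shared bases were found in 18.8%, 19.4%, 23.2% and 20.8% of opposite reads of Igkv19-93, Igkv16-104, Igkv13-84 and Igkv18-36.

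**Figure D4:**
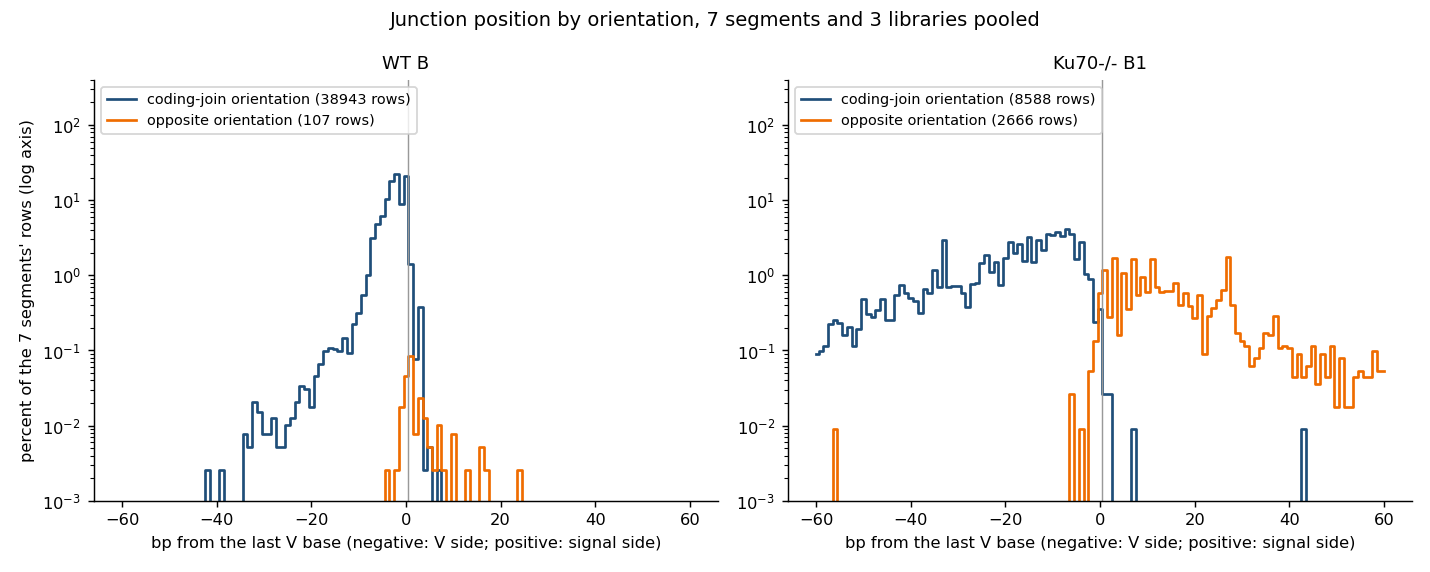
Share of the 7 segments' reads (%, log axis) by junction position relative to the V coding end (bp, horizontal axis; negative is inside the segment and positive is the RSS side) for coding and opposite orientation, pooled over the 7 segments and 3 libraries, in WT clone B and Ku70-/- clone B1. In WT nearly all reads are in the coding orientation (opposite share 0.275%), and in Ku70-/- the opposite reads (23.8%) lie on the RSS side.

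Lig4-/- libraries held too few reads to describe most segments. The 12 libraries held 490 reads in all and 40 reads of the 7 segments, 0 to 13 per library. Igkv19-93 had 28 of them, 23 in the opposite orientation, and Igkv16-104 had 9. Igkv13-84, Igkv13-85 and Igkv15-103 had 1 each, and Igkv18-36 and Igkv7-33 had none. Replicate 1 of the first Lig4-/- clone A1 set had 13 Igkv19-93 reads of 35 (37.1%), all copies of 1 distinct junction. A count of 0 in these libraries allows shares of up to 4.05% in the deepest and up to the whole of a library of 3 reads, above the WT level of every member.

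Against WT, 2 of 7 members were called lower in Lig4-/- (Igkv18-36 and Igkv7-33, exact permutation p = 0.005, adjusted p = 0.0118), against 48.8% of 123 segments. Both were at 0 in all 6 Lig4-/- libraries, and their WT levels lie under what a count of 0 allows there. Lig4-/- +Lig4 against Lig4-/- gave 5 of 7 members higher (61.1% of 108 segments), all but Igkv16-104 and Igkv19-93. The groups of that comparison shared no sequencing run in either lineage, so genotype and run cannot be told apart there. Lig4-/- Ku70-/- against Lig4-/- gave 3 of 7 higher (Igkv15-103, Igkv13-84 and Igkv7-33; 51.5% of 97 segments). Igkv7-33 had only 6 reads in Lig4-/- Ku70-/- clone A1_1 and 14 in clone C1, the latter from 3 distinct junctions. In each of these comparisons the called members had no read in the Lig4-/- libraries. They met the minimum of reads for a test through the other group alone, so on the percent scale their differences could take only 1 sign. With the replicate number as a block none of these members passed (adjusted exact p of 0.0739 for both against WT, 0.0553 to 0.101 for +Lig4 and 0.0798 to 0.117 for Lig4-/- Ku70-/-). Here too a segment could pass the block test only if most segments tested reached its smallest p. The Igkv7-33 calls against Lig4-/- were also lost when any 1 Lig4-/- library was left out. All of these 10 differences turned sign on the log2 scale with 0.5 reads added, as a Lig4-/- library at 0 then sits above the deep libraries. The differences were therefore not detectable at this depth. No member held 10 reads in every library of these comparisons, so the structure of its joins was not tested in them. Lig4-/- Ku70-/- +Ku70 against Lig4-/- Ku70-/- gave 0 of 7 by the exact permutation test (0% of 97 segments, with 26 segments at an unadjusted p under 0.05). Igkv19-93 had 8.70%, 4% and 10% of the 46 to 75 reads in clone A1_1 +Ku70 and 6.19%, 3.43% and 6.62% in clone C1 +Ku70, against 3.98% ± 0.817 and 6.59% ± 0.814 without added Ku70 (difference 1.21 points, exact permutation p = 0.34, adjusted p = 0.66).

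Lig4-/- +Lig4 libraries were compared with WT in lineage A to see how close the joins came to WT. The 2 groups shared no sequencing run, so genotype and run cannot be told apart in these differences. The 7 segments took 6.09% ± 0.247 of reads in clone A1 and 6.04% ± 0.182 in clone C. Igkv19-93 had 3.29%, 2.68% and 3.04% in clone A1, above WT clone A in all 3 libraries, and 3.00%, 3.58% and 3.63% in clone C. Igkv16-104 had 1.62%, 1.74% and 1.71% and Igkv15-103 0.716%, 0.813% and 0.912% in clone A1, both also above WT clone A. These 3 of 7 members were higher without overlap (smallest possible exact permutation p = 0.1), against 37.2% of 113 segments in either direction. The median difference was -0.00281 points over the 7 and 0.0143 over all 113.

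V-end loss in Lig4-/- +Lig4 clone A1 differed from WT clone A by at most 1.17 bp. The median loss was 2 bp for Igkv16-104 and 3 bp for Igkv15-103 in each library, with 0 of 5 members apart from WT (6.74% of 89 segments). The Jk1 end lost slightly more, 1 bp against 0 for Igkv19-93 and Igkv15-103 and 2 against 0.333 bp for Igkv18-36 (3 of 5 members, 25.8% of 89 segments). Over distinct junctions Igkv19-93 and Igkv18-36 overlapped, with differences of 0.667 and 0.5 bp. Inserted bases were fewer in 3 of 5 (53.9% of 89 segments), 53.4% ± 3.19 against 63.7% ± 4.65 for Igkv19-93 and 66.4% ± 9.69 against 88.9% ± 8.74 for Igkv18-36. Opposite reads were more frequent in 4 of 6 (46.7% of 90 segments), 1.60% ± 1.16 against 0.0768% ± 0.133 for Igkv19-93, but Igkv19-93 and Igkv16-104 overlapped over distinct junctions. Microhomology was apart in 1 of 5, Igkv15-103 (39.3% of 89 segments), at 1.63% ± 0.685 against 0.129% ± 0.223. Pooled over the 7, the opposite share was 2.11% ± 0.668 in clone A1 and 0.198% ± 0.120 in clone C, the latter below both WT means.

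**Figure D5:**
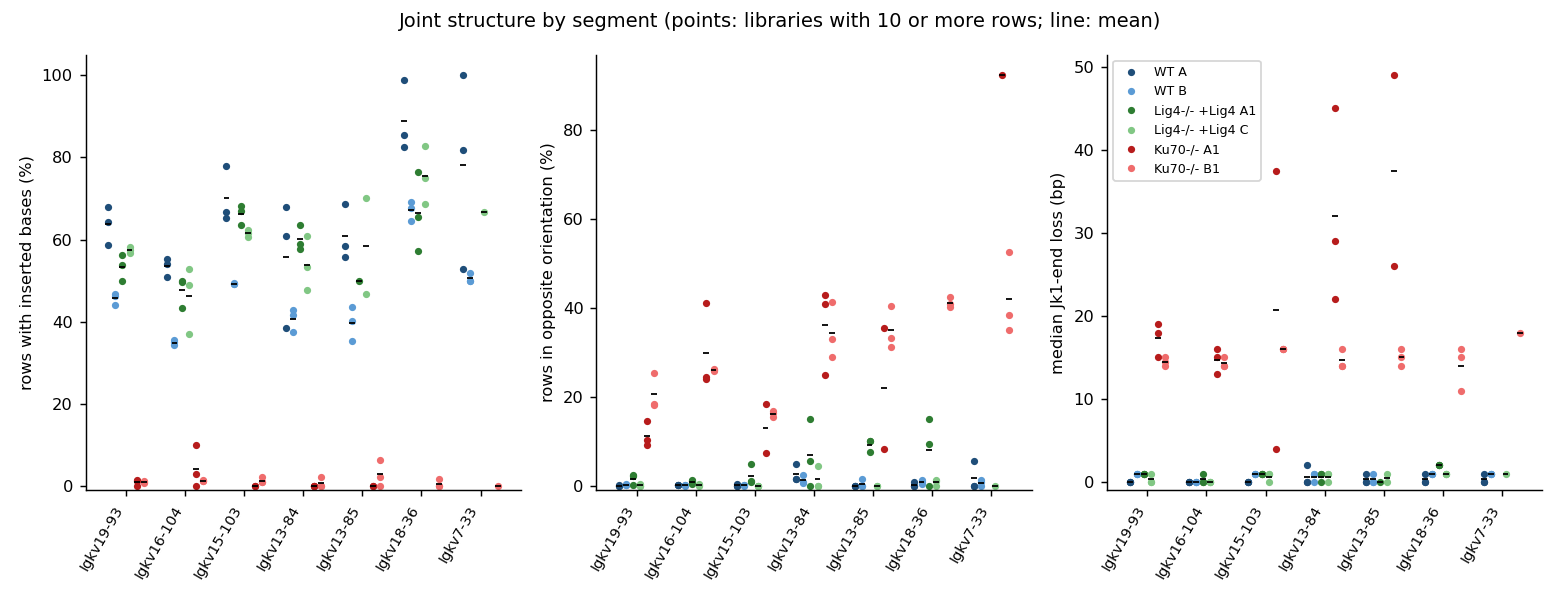
Share of reads with inserted bases (%), share of opposite-orientation reads (%) and median loss from the Jk1 end (bp) for each of the 7 segments in WT, Lig4-/- +Lig4 and Ku70-/- clones; points are libraries with at least 10 reads of the segment and short lines are their means. For Igkv19-93 the mean insertion share is 63.7% in WT clone A, 53.4% in Lig4-/- +Lig4 clone A1 and 0.933% in Ku70-/- clone A1.

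Lig4-/- Ku70-/- cells were set against Ku70-/- in lineage A to ask what loss of Lig4 adds. The 7 segments took 6.62% ± 1.37 of reads in clone A1_1 and 8.87% ± 0.632 in clone C1, and clone C1 was the highest of the 8 deeper groups. Igkv19-93 accounted for most of this, with 3.64%, 4.91% and 3.39% in clone A1_1 and 7.52%, 5.99% and 6.26% in clone C1, where it ranked 3 of 114 segments. In lineage A it was higher than in Ku70-/- in all 3 libraries (difference 1.23 points), as was Igkv16-104 (1.23%, 1.23% and 1.31% against 0.705% to 1.11%), and Igkv13-85 was lower, with no read in 2 of 3 libraries. These 3 of 7 members did not overlap (smallest possible exact permutation p = 0.1), against 35.8% of 95 segments. Within the 3 shared runs Igkv19-93 was higher by 0.696 to 2.22 points, Igkv16-104 was higher by 0.126 to 0.608, and Igkv13-85 was lower in each. In the coding orientation alone all 3 overlapped.

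The structure of the joins was not told apart between Lig4-/- Ku70-/- and Ku70-/- for the members deep enough. For Igkv19-93 the V-end loss was 20 bp ± 1.73 against 23 ± 5.57, the Jk1-end loss 22.5 bp ± 7.86 against 17.3 ± 2.08, microhomology 21.0% ± 6.32 against 21.6% ± 3.98 and insertions 1.56% ± 1.43 against 0.933% ± 0.809 (n = 3 each). Members apart numbered 0 of 1 for V-end loss (13.2% of 38 segments), 0 of 1 for Jk1-end loss (21.1%), 0 of 1 for microhomology (13.2%) and 0 of 1 for insertions (7.89%). For the opposite share it was 0 of 2 (16.3% of 49 segments), with 18.7% ± 8.09 against 11.3% ± 2.85 in Igkv19-93 and 45.1% ± 29.1 against 29.9% ± 9.77 in Igkv16-104. A difference the size of these SDs could have been missed.

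Across those 8 groups, the level of each member was set against that of every other segment on the log2 scale. The most alike were Igkv10-95 for Igkv19-93 (Pearson r = 0.94), Igkv12-98 for Igkv15-103 (0.932), Igkv4-61 for Igkv18-36 (0.894), Igkv4-51 for Igkv7-33 (0.88), Igkv6-17 for Igkv16-104 (0.853), Igkv4-75 for Igkv13-85 (0.745) and Igkv11-125 for Igkv13-84 (0.727). These describe 8 group means that share depth, platform and lineage, and no test was made.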

How the data were processed

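The 42 RAG libraries of the series were used, and the remaining libraries were not analysed here. Per the labels, libraries followed a published LAM-HTGTS protocol (linear amplification from a bait primer into the joined prey) with the enzyme blocking step left out. The deposited junction lists give other kinds of values than counts, 1 row per read with prey position, orientation and alignment ends, and were not de-duplicated. Per the submitters' processing notes, Bowtie2 and mm10 were used; versions are not given in the sources used here. Each row of chromosome 6 was assigned to the Igkv segment within 100 bp (RefSeq, GRCm38). Microhomology was an overlap of bait and prey alignments of at least 2 bp, insertion a gap between them, and usage the percent of a library's rows. Expected direction was set from WT rows within 20 bp of the ends (at least 20 rows). Sequences are the majority base of deposited reads, with at least 5 reads at every base of the 7 segments; the majority base held 87.4% to 98.0% of reads at the weakest position.

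Tests were two-sided exact permutation tests of library values within lineages, run on every segment with at least 20 reads in the comparison (usage) or 10 reads in every library (structure), Benjamini-Hochberg adjusted over all segments tested and called at adjusted p under 0.05. In 1 lineage (20 relabellings) a call was a lack of overlap. The usage test was checked on simulated data. No set of the 7 was tested. The rule named all 7 members, the segment outside the 7 most alike to each and the most used segment of each WT clone. The members, this rule and the tests were chosen with earlier results of these data known. Of 42 replicate pairs none shared a read name, and 4 had chi-square tests without a difference; these were small Lig4-/- and +Ku70 libraries compared over 2 segment classes, so all were kept. Alternatives were distinct junctions, other windows, log2 values, other denominators, row minimums, a 1 bp minimum, other end definitions, the other Lig4-/- clone A1 set, a replicate block and each replicate left out. Python 3.11.15, NumPy 2.4.6, pandas 2.3.3, SciPy 1.17.1 and matplotlib 3.10.9 were used. Confidence limits were 95% exact binomial, and a floor is 3 reads of a library.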

Additional observations from a re-analysis of the deposited data

Results flagged for a closer look

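The effect of a genotype was compared between lineages for each member tested, 50 differences in all. They covered usage and, in Ku70-/- against WT, also joint structure. Of these, 4 had an unadjusted exact permutation p under 0.05, all in usage. None of the 50 had an adjusted p under 0.05. Igkv16-104 usage in Ku70-/- against WT was -0.225 percentage points in lineage A and 0.404 in lineage B, a difference of 0.629 (exact permutation p = 0.025, adjusted p = 0.194). Lineage B was higher in 3 of 3 libraries, and lineage A overlapped.

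The other 3 concern Igkv19-93 and rest on Lig4-/- libraries of 3 to 74 reads. Lig4-/- against WT was 12.4 points in lineage A and -0.747 in lineage B, a difference of -13.13 (exact permutation p = 0.005, adjusted p = 0.307). Lig4-/- Ku70-/- against Lig4-/- was -6.02 in lineage A and 5.86 in lineage C, a difference of 11.88 (exact permutation p = 0.02, adjusted p = 0.647). Lig4-/- +Lig4 against Lig4-/- was -11.6 and 2.68, a difference of 14.31 (exact permutation p = 0.015, adjusted p = 0.72). The lineage A values against WT and of +Lig4 include the library in which 1 junction made up 37.1% of reads.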

How the results depend on the processing

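Called usage in Ku70-/- against WT (28 segments) became 67 over distinct junctions, 53 for junctions inside the segment, 54 in the coding orientation alone and 0 to 31 when 1 library was left out, with 0 only without replicate 1 of Ku70-/- clone A1. Structure calls in that comparison (281 over 5 measures) became 149 over distinct junctions and 116 with 30 reads per library. The main setting tested 66 segments for the opposite share and 55 for each other measure. These 2 settings change which segments have enough reads to be tested. The fall in calls alone therefore does not show that results were lost. In Lig4-/- Ku70-/- against Ku70-/- structure calls (29) became 14 and 12, and 40 to 59 with a library left out. The main setting tested 49 segments there for the opposite share and 38 for each other measure. A call there is a lack of overlap, which 2 libraries against 3 meet more easily than 3 against 3. The summed usage difference in lineage A (0.551 points) turned to -0.486 inside the segment and -0.601 in the coding orientation alone, as reads on the RSS side are then left out. In lineage B (2.20) it was 1.40 over distinct junctions, 0.774 and 0.647. For the WT clones (-0.304) it was 0.0551 over distinct junctions, and for +Lig4 against WT (1.40) it was 0.860. Pooled microhomology in lineage A (15.8 points) was 32 with a 1 bp minimum and 19.9 with members weighted equally. In lineage B (1.37) it was 11.7 over distinct junctions, 17.9 and 11.4, and for the WT clones (9.95) 1.18, 14.8 and 1.83. Microhomology of Igkv16-104 in Ku70-/- was 5.50 with a 1 bp minimum. Over distinct junctions the insertion difference of the WT clones was 2.01 for Igkv16-104 and 0.899 for Igkv15-103. On the log2 scale with 0.5 reads added, the Lig4-/- against WT differences were 1.81 (Igkv18-36) and 4.86 (Igkv7-33). Those of Lig4-/- Ku70-/- were -1.59 (Igkv15-103), -3.00 (Igkv13-84) and -5.15 (Igkv7-33), and those of +Lig4 were -1.26 (Igkv15-103), -4.77 (Igkv13-85), -3.27 (Igkv13-84), -2.91 (Igkv18-36) and -6.26 (Igkv7-33). Except where stated, the cause was not tested.

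With the replicate number as a block, usage calls became 0 in Ku70-/- against WT, Lig4-/- against WT, Lig4-/- Ku70-/- against Lig4-/- and +Lig4 against Lig4-/-, where 6 pairs give no p below 0.0312. Per the read names, replicates 2 and 3 of lineage A groups other than +Lig4 shared a run by number, as did replicate 1 except in WT. In lineage B all libraries were 1 run. Same-numbered libraries had correlated deviations of only -0.187 to 0.134 over segments, and the labels give the numbers no meaning, so whether they pair the samples is not settled.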
